A study of Arabidopsis thaliana with 8 samples.

Results

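NIGHT LIGHT-INDUCIBLE AND CLOCK-REGULATED 1 to 4 (LNK1 to LNK4) are a small family of Arabidopsis thaliana clock coactivators. Binding of the flowering regulator CONSTANS (CO) at these genes was read from chromatin immunoprecipitation with sequencing (ChIP-seq). The members were LNK1 (AT5G64170), LNK2 (AT3G54500), LNK3 (AT3G12320) and LNK4 (AT5G06980), that is 4 of 27444 nuclear protein-coding genes, chosen by locus identifier. A peak was counted at a member when its summit, the position of highest signal, fell inside the gene or at most 3000 bp from either end. By that rule 5 of the 3306 peaks of the 35S:CO list, 5 of the 3214 peaks of the filtered list and 0 of the 380 peaks of the co-10 list belonged to the LNK genes.

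The plants were 7-day-old seedlings of 2 genotypes grown in long days. 35S:CO seedlings overexpress CO from the 35S promoter of cauliflower mosaic virus, which is active in most tissues. CO is thus also transcribed in cells and at hours where its transcript is normally scarce. The level of CO protein is not given by the peak lists. co-10 seedlings carry a mutant CO allele and show what the antibody pulls down when CO is lost. For each genotype there were 2 immunoprecipitates with an anti-CO antibody and 2 inputs without antibody. All samples were fixed with 1% formaldehyde for 20 min and for 10 min with 1 mM DSG, which links proteins to each other. The hour of harvest is not given in the sources used here. The deposited data were 3 peak lists: 1 for each genotype and a filtered form of the 35S:CO list. No column belonged to a replicate, so replicate error is unknown and no difference between the genotypes, or between genes, has a replicate check or a test.

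The LNK proteins have no known DNA-binding domain. They are brought to promoters by MYB factors of the REVEILLE family, above all RVE8 and RVE4, and with them activate afternoon and evening clock genes such as PRR5, TOC1 and ELF4. LNK1 and LNK2 are the members best known for setting clock pace and flowering time, and LNK3 and LNK4 are their smaller relatives. CO itself has B-box and CCT domains, binds DNA together with NF-Y subunits and activates the florigen gene FT in long days.

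Every LNK gene had a peak at an end of the gene in 35S:CO seedlings, and no LNK gene had a peak within 3000 bp in co-10 seedlings. The fold enrichment over background, a ratio given by the authors for each peak, was highest at LNK2 with 34.9, followed by LNK3 with 17.2, LNK4 with 13.5 and LNK1 with 7.42. LNK2 had a further, weaker peak of 4.63. Having a peak was the case for 4 of 4 LNK genes in the filtered list, against 19.2% of all nuclear protein-coding genes under the same rule. In the unfiltered 35S:CO list the share over all genes was 19.3%, and in the co-10 list it was 0.619%.

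LNK2, whose loss together with that of LNK1 is known to lengthen the clock period and delay flowering, had the strongest peak of the family. It spanned 20178615 to 20179659 on chromosome 3 (TAIR10), was 1045 bp wide and had its summit at 20179170. Its fold enrichment of 34.9 ranked 33rd of the 3214 filtered peaks, and its −log10 q was 195. The summit lay 100 bp outside the gene, and the peak reached across the gene end into LNK2. A long non-coding RNA gene inside LNK2, AT3G08405, was also touched by the peak, with the summit 434 bp away. The next protein-coding gene on that side, AT3G54510, began 837 bp from the summit.

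The weaker LNK2 peak spanned 20179995 to 20180600 on chromosome 3, with a width of 606 bp and a summit at 20180224. Its fold enrichment was 4.63, its −log10 q 5.93 and its rank 2037. The summit lay 1154 bp outside LNK2 and inside AT3G54510, so it belongs to LNK2 only by the 3000 bp rule. The LNK2 summits were 1054 bp apart, and a gap of 335 bp separated the peaks. A neighbouring summit at that distance or less was found for 382 of the 3210 nuclear filtered peaks (11.9%).

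LNK3 had a single peak, from 3923220 to 3923963 on chromosome 3. It was 744 bp wide, had its summit at 3923670, a fold enrichment of 17.2, a −log10 q of 69.8 and rank 236. The summit lay inside LNK3, 155 bp from the end of the gene that the peak covered. The nearest gene on the outer side, BUG22 (AT3G12300), was 515 bp from the summit and not touched by the peak. Also within 3000 bp of the summit were AT3G12340, 1828 bp away, and AT3G12290, 2151 bp away.

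LNK4 had a single peak, from 2167017 to 2167798 on chromosome 5. It was 782 bp wide, had its summit at 2167393, a fold enrichment of 13.5, a −log10 q of 51.0 and rank 370. The summit lay inside LNK4, 273 bp from the covered end. The next gene outward, AT5G06970, was 882 bp from the summit. Also within 3000 bp of the summit was AT5G06990, 2032 bp away.

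LNK1, the longest of the 4 genes, had the weakest main peak. It spanned 25676630 to 25677071 on chromosome 5, was 442 bp wide and had its summit at 25676825. Its fold enrichment was 7.42, its −log10 q 15.8 and its rank 985. The summit lay 2 bp outside the gene end, with AT5G64180 beginning 247 bp away on the other side. The peak spanned the LNK1 end, lying partly in the gene and partly in the short interval before AT5G64180. Its summit was within 3000 bp of AT5G64180 and also of AT5G64190, 2600 bp away.

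**Figure D1:**
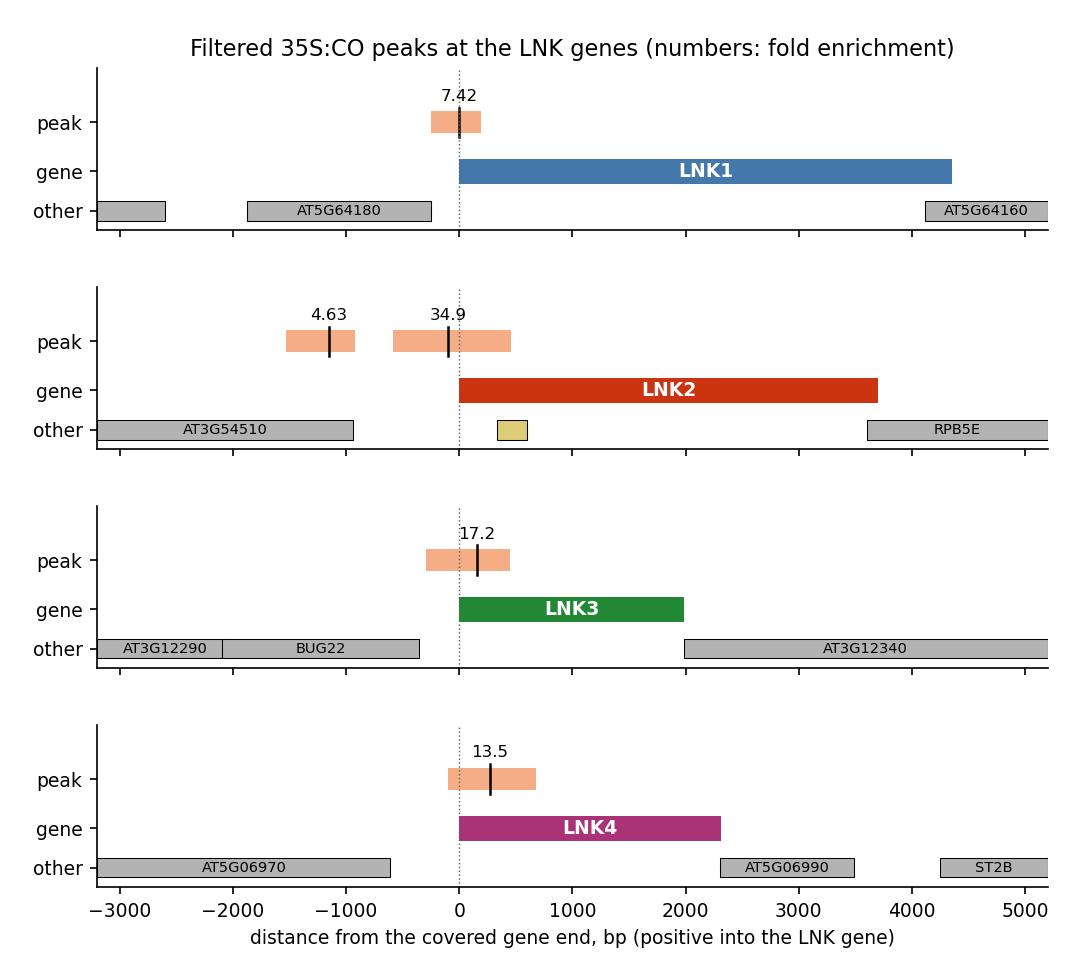
Filtered 35S:CO peaks (orange, with the summit as a black line and the fold enrichment above it) drawn to scale around LNK1, LNK2, LNK3 and LNK4. The x axis is the distance in bp from the gene end that the main peak covers, positive into the LNK gene; grey boxes are other protein-coding genes and the yellow box is a long non-coding RNA gene. All 4 main peaks cover the gene end at 0, and the 4.63-fold peak at LNK2 lies over the neighbouring gene.

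The position of the main peaks was then set beside that of other peaks. All 4 covered an end of the LNK gene, with the summit 2, 100, 155 and 273 bp from that end at LNK1, LNK2, LNK3 and LNK4. Of the 3210 nuclear filtered peaks, 41.6% covered an end of a protein-coding gene, and 43.3% had their summit within 273 bp of one. Over all nuclear protein-coding genes, 5.63% had an end covered by a filtered peak. Of 21 other clock genes with a filtered summit in reach, 16 had their strongest peak over an end of that gene. The same share was not computed for all genes with a filtered summit in reach. The LNK summits were divided in side, with 2 outside the gene at LNK1 and LNK2 and 2 inside at LNK3 and LNK4. The side at LNK1 turns on 2 bp. It rests on the gene and peak coordinates matching more finely than could be checked.

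At each LNK gene, the covered end was the one that no other protein-coding gene overlaps. The opposite end was overlapped by AT5G64160 at LNK1, by RPB5E (AT3G54490) at LNK2, by AT3G12340 at LNK3 and by AT5G06990 at LNK4. Measured from the covered end, the opposite end lay at 4357, 3700, 1987 and 2317 bp in that order. The overlapping gene reached in to 4113, 3608, 1983 and 2305 bp, so the overlaps at LNK3 and LNK4 were very short. Among all nuclear protein-coding genes with a neighbour over 1 end and a filtered peak over 1 end, the peak was at the free end in 268 of 345 (77.7%). The LNK genes are therefore placed like most genes of this layout. Strand was not used here, so the covered ends are not named as starts or ends of transcription.

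Peaks farther away were set beside the 3000 bp limit. The outermost peak inside the limit was the weaker LNK2 peak at 1154 bp. The nearest filtered peak outside it lay 5534 bp from LNK3, between positions 3930657 and 3931750, at a fold enrichment of 6.20. The next peaks were 12923 bp from LNK4 (3.31), 27591 bp from LNK1 (3.07) and 29555 bp from LNK2 (6.60).

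The number of fragments behind each peak was recovered from the deposited fold enrichment and p-value, as set out in the processing summary. LNK2 had a pileup, that is a count of fragments covering the summit, of 161 (95% Poisson interval 137 to 188) over a background of 3.64 expected fragments. LNK3 had a pileup of 76 (59.9 to 95.1) over 3.47. LNK4 had a pileup of 63 (48.4 to 80.6) over 3.73. The LNK1 pileup was 27 (17.8 to 39.3) over 2.77, and that of the weaker LNK2 peak 15 (8.40 to 24.7) over 2.46. These intervals cover counting error only, since replicates are pooled and fragments copied by PCR are not independent.

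The LNK genes differed far more in pileup than in background. Across the 4 main peaks the pileup differed 5.96-fold between the highest and the lowest, and the background 1.35-fold. The median background of nuclear 35S:CO peaks was 3.07 (interquartile range 2.73 to 3.49). Of the 6 pairs of main peaks, 5 had pileup intervals that did not overlap. The intervals of LNK3 and LNK4, neighbours in the order, overlapped, with a fold enrichment 1.27 times as high at LNK3. As the intervals cover counting error only, their overlap or lack of it is no test of a difference between genes. LNK2 stood 2.02-fold above LNK3, 2.58-fold above LNK4 and 4.70-fold above LNK1 in fold enrichment. LNK4 stood 1.82-fold above LNK1.

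**Figure D2:**
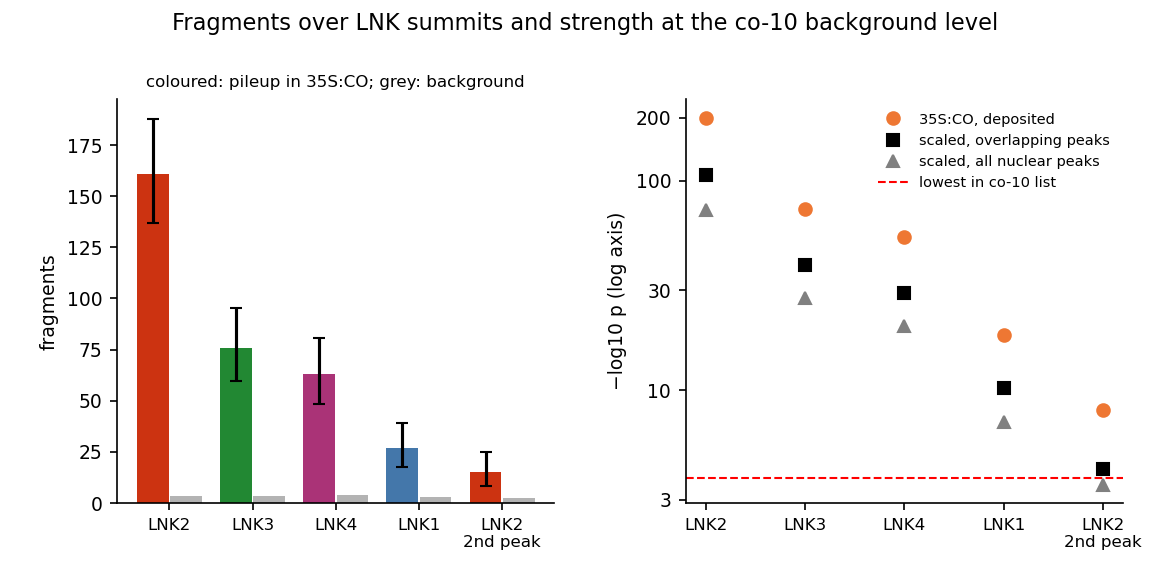
Left, recovered fragments over each LNK summit in 35S:CO (coloured bars, with 95% Poisson intervals for counting error) and the expected background (grey bars), in fragments. Right, −log10 p (log axis) of the same peaks as deposited and after scaling to the co-10 background level in either of 2 ways, with the lowest value of the co-10 list as a dashed line. The 4 main peaks lie above that line under both scalings, and the weaker LNK2 peak, at 4.19 and 3.53, straddles it.

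To ask whether signal at the LNK genes remained without functional CO, the co-10 list was examined. None of the 5 LNK peaks shared a single base with a co-10 peak, and 2.78% of all 35S:CO peaks did (92 of 3306), so this count is near that of the whole list. All 5 were in the filtered list with unaltered values, and each of the 92 peaks missing from that list overlapped a co-10 peak. The co-10 peak nearest to LNK3 lay 112962 bp away, and those nearest to LNK4, LNK2 and LNK1 lay 1083765, 2207324 and 3448997 bp away. The absence was set against the recovered background, which at 47 pairs of overlapping peaks was 0.530 times as high in co-10 as in 35S:CO. Sequencing depth itself was not measured, and both backgrounds rest on the assumed formula. With pileup and background multiplied by that ratio, the expected −log10 p was 107 at LNK2, 39.5 at LNK3, 29.2 at LNK4, 10.2 at LNK1 and 4.19 at the weaker LNK2 peak. The lowest value in the co-10 list was 3.81, so peaks of these sizes could have been listed in co-10. With the ratio of the median backgrounds of all nuclear peaks, 0.356, the main peaks gave 72.4, 27.5, 20.1 and 7.01 in the same order and the weaker LNK2 peak 3.53, below the limit. Under that ratio a loss of the weaker peak in co-10 was not detectable. Efficiency of the immunoprecipitation in the 2 genotypes was not tested.

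Peak width was larger at stronger peaks over the nuclear filtered peaks, with a Spearman rho of 0.742 across 3210 peaks, which come from the same libraries and are not independent. The LNK peaks followed that relation in part. Each was set beside the 100 filtered peaks nearest in fold enrichment. LNK2, at 1045 bp, was close to the median of 1065 bp of its like (interquartile range 838 to 1392). LNK3, at 744 bp, had like peaks with a median of 774 bp (672 to 1029). LNK4, at 782 bp, had like peaks with a median of 732 bp (617 to 1021). The LNK1 peak was narrower than the lower quartile, at 442 bp against a median of 521 bp (460 to 584). The weaker LNK2 peak was broader than the upper quartile, at 606 bp against a median of 402 bp (356 to 496).

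**Figure D3:**
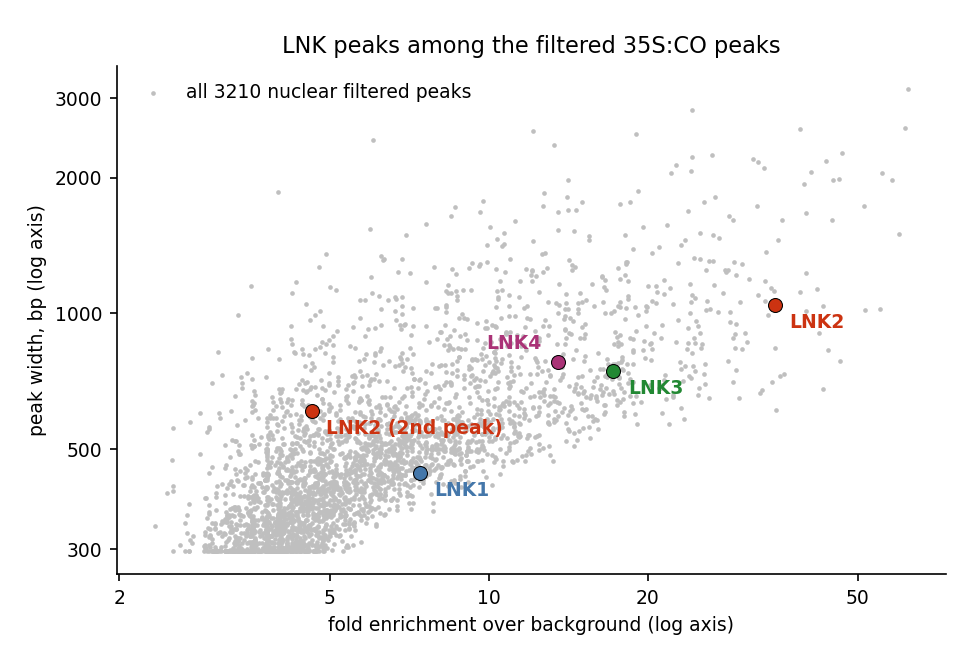
Peak width in bp against fold enrichment over background (both log axes) for the 5 LNK peaks (coloured, named) and all 3210 nuclear filtered peaks (grey). LNK2, LNK3 and LNK4 lie within the grey cloud near the middle of its width range for their strength, LNK1 at 442 bp lies low and the weaker LNK2 peak at 606 bp lies high.

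The strength of the family was also read per gene. The strongest peak of each LNK gene had a median fold enrichment of 15.4 (7.42 to 34.9), against 6.15 for the 5257 nuclear protein-coding genes with a filtered summit in reach. LNK2 exceeded 98.7% of those genes, LNK3 90.3%, LNK4 84.9% and LNK1 62.1%. A peak as strong as that of LNK2 was in reach of 68 genes in the genome, and one as strong as that of LNK1 of 1993. Genes that lie close together share summits, so these are not independent counts. The choice of the members with earlier results of these data known applies here too.

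The LNK genes were compared with a list of 27 other clock genes, of which 21 (77.8%) had a filtered summit in or within 3000 bp, against 19.2% of all nuclear protein-coding genes. The list was drawn up with earlier results of these data known. The strongest peak per gene had a median of 15.4 in the LNK genes, against 17.6 (4.05 to 55.5) in these 21 genes. A co-10 summit was in reach of 0 of the 27 genes, near the 0.619% of all nuclear protein-coding genes.

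All 8 REVEILLE MYB genes of the list, the family of RVE8 and RVE4, had a peak. The share over all nuclear protein-coding genes was 19.2% under the same 3000 bp rule. RVE8, the best studied partner of the LNK proteins, had a fold enrichment of 43.6 with the summit inside the gene. RVE4, a close relative of RVE8, had 27.2, and RVE6, another relative, had 5.88, both with the summit inside the gene. The LNK2 value lay between those of RVE8 and RVE4, and the LNK1 value between those of RVE4 and RVE6. RVE3 had 42.2, RVE2 34.3 with the summit 2500 bp from the gene, RVE1 15.0, RVE7 14.2 and RVE5 10.3. The morning repressors LHY and CCA1, which also bind LNK proteins, had 29.4 and 19.0.

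Among genes that LNK proteins activate with RVE8, PRR5 had the strongest peak of the list, 55.5, its summit 1327 bp from the gene. ELF4, of the evening complex, had 9.89, and TOC1, the evening repressor, had 6.81. The other genes of the list at 10 or more were PRR9 (30.6), LWD2 (27.8), GI (18.3, with the summit 2558 bp away) and LWD1 (17.6). In all, 14 of the 27 genes of the list reached 10. The share of all nuclear protein-coding genes at that limit was not computed. That share was 7.26% at the LNK1 value of 7.42 or more and 2.89% at the LNK4 value of 13.5 or more. PRR7, PRR3, ELF3, FKF1, LKP2 and COR27 had no filtered summit in reach.

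Likeness of the LNK genes to single clock genes was measured as the difference in log2 fold enrichment of the strongest peak, and the nearest 2 genes are given for each member. LNK2 was nearest to RVE2 (difference 0.03), whose summit lay 2500 bp from that gene, and PRR9 (0.19). LNK3 was nearest to LWD1 (-0.03) and to GI (-0.09), where the GI summit lay 2558 bp from the gene. LNK4 was nearest to RVE7 (-0.07) and RVE1 (-0.15). LNK1 was nearest to ZTL (-0.04), an F-box protein gene, and BOA (-0.07), of the evening complex, whose summits lay 2829 and 2984 bp from those genes. With 1 pooled value per gene these are likenesses of peak strength in a single list.

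**Figure D4:**
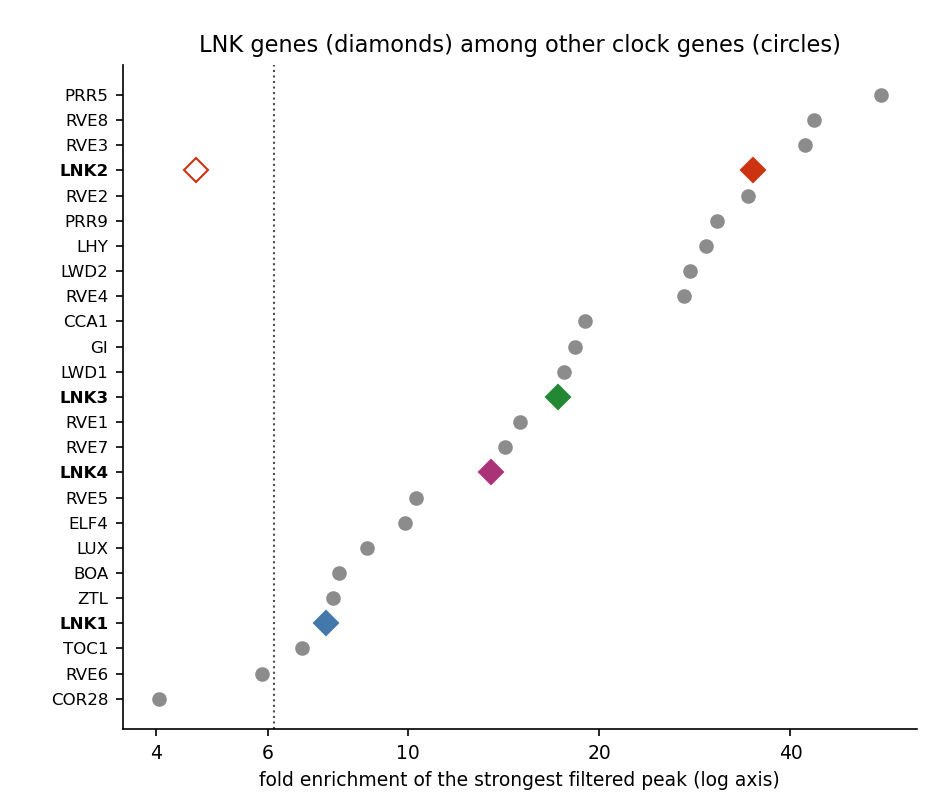
Fold enrichment of the strongest filtered peak (log axis) at LNK1 to LNK4 (filled diamonds; open diamond, the weaker LNK2 peak) and at the 21 other clock genes with a summit in or within 3000 bp (circles), in order of strength. LNK2 at 34.9 is near the top and LNK1 at 7.42 near the bottom; the dotted line marks the median of all genes with a summit, 6.15.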

How the data were processed

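Anti-CO ChIP-seq and input libraries of 35S:CO and co-10 seedlings (8 samples, 4 groups of 2) were represented by 3 headerless peak lists that the authors deposited. TAIR10, Bowtie, MACS2, FastQC and deepTools are named in the submitters' processing notes, with no roles; thresholds and the handling of replicates are not given in the sources used here. Peak names carry the word "both", so lists were treated as pooled. The deposited fold enrichment is a ratio to local background, and the deposited strengths are −log10 p and −log10 q values. The integer score that the authors deposited was not analysed. Depth per sample is unknown from peak lists. Summit offsets were added to peak starts, and positions are counted from 1.

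Gene positions came from a RefSeq table of assembly TAIR10.1, which has no strand, and none is printed. All 4 members and 27 clock genes matched it. To check the match with TAIR10, filtered summits were shifted in steps of 50 bp up to 5000 bp. On chromosomes 3 and 5 the share in genes was 38.7% and 40.5% unshifted, 60.0% to 62.1% at the extremes, and lowest at shifts of -50 and 250 bp. The check is no finer than that, and distances to gene ends rest on the assemblies having the same nuclear coordinates.

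Pileup and background were solved from the deposited values, with fold enrichment equal to (pileup + 1) / (background + 1) and p equal to the upper Poisson tail beyond the pileup, for pileups of at most 4999. The −log10 p was matched within 0.001 for 3306 of 3306 35S:CO and 379 of 380 co-10 peaks. The solver was tested on simulated data; the formula is assumed. The ratio of co-10 to 35S:CO background is the median over overlapping peaks with backgrounds of at most 10, and scaled pileups were rounded down.

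Named genes were the members, annotated neighbours within 3000 bp of a summit, and clock genes with a fold enrichment of at least 10 or nearest in strength to a member. The remaining clock genes and the genes overlapping a member's end were named after their values were seen. Members and lists were chosen with earlier results of these data known. Alternatives for distance, assignment, q-value, overlap and background ratio were tried. Sequence was not used here. Python 3.11.15, NumPy 2.4.6, SciPy 1.17.1, pandas 2.3.3 and matplotlib 3.10.9 were used.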

Additional observations from a re-analysis of the deposited data

How the results depend on the processing

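Of 22 alternatives, 20 left the count within 1.5 times the reported one. Counting only summits inside the gene gave 2 LNK genes (LNK3 and LNK4) and 2 peaks. The LNK1 and LNK2 main summits were placed 2 and 100 bp outside. Limits of 1000 and 5000 bp, assignment to the nearest gene, and −log10 q of at least 5 or 10 each gave 4 LNK genes, with 4 or 5 peaks. Overlap of any part of the peak with the gene or its flanks gave 4 LNK genes and 5 peaks. The peak that came and went was the weaker LNK2 peak. The counts of LNK genes with a co-10 summit and of LNK peaks shared with co-10 were 0 under every alternative run for them, which says little, since 0.619% of all genes and 2.78% of all 35S:CO peaks meet these conditions. The clock list had 19 genes at 1000 bp and 19 at a −log10 q of at least 10. Callable at the co-10 background level were 5 LNK peaks, or 4 with the ratio from all nuclear peaks. No paired analysis was possible because the lists hold no values by replicate, and so none could be left out. The motif alternatives were not run. The lower recovered background of co-10 limits what its list can show for the weaker LNK2 peak.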
